A study of Mus musculus with 2 samples.

Results

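The cells described here are 134 mouse bone marrow cells, rich in the transcripts of Elane (neutrophil elastase) and Prtn3 (proteinase 3), from a culture held opposite human mesenchymal stem/stromal cells (MSCs). They were chosen by their own measured values: a barcode needed at least 500 detected genes and at most 10% of its UMIs (unique molecular identifiers, each standing for 1 captured transcript) from mitochondrial genes, at least 20 UMIs of Elane and Prtn3 together, and less than 1% of its UMIs from the eosinophil granule genes Prg2, Epx and Prg3. The 134 cells were 4.46% of the 3005 coculture cells that passed the first pair of limits (exact 95% interval 3.75% to 5.26%), out of 4822 such cells in both libraries. The working name given to them was granulocyte-monocyte progenitors.

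The study compared 1 sorted library from each of 2 cultures of femoral marrow of C57BL/6NCrljOri mice (H-2b), of which the labels state no number, age or sex. Both cultures received GM-CSF, a cytokine that drives myeloid growth, at 40 ng/mL for 5 days. In the coculture, human MSCs sat in inserts with 0.4 µm pores at 1 MSC to 5 marrow cells, in DMEM, after 24 hours alone, and cells with intermediate CD11b and Ly6C were sorted. The culture without MSCs was kept in RPMI1640, and cells high for both surface proteins were sorted from it, so coculture, medium, sort gate and library cannot be told apart in any comparison between the libraries. With 1 library per culture, no test between conditions was possible, and every interval below covers counting error alone.

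Elane, Prtn3, Ctsg (cathepsin G) and Mpo (myeloperoxidase) encode the proteins of primary, or azurophil, granules, which promyelocytes fill early in neutrophil development. In marrow, granulocyte-monocyte progenitors begin to transcribe these genes under the factors PU.1 (gene Spi1), C/EBPα and MYB. As the neutrophil branch proceeds, Gfi1 and Cebpe mark commitment to granulocytes, the primary granule genes are shut off, and secondary granule genes such as Ngp, Camp, Ltf and Lcn2 follow, whereas Irf8 and Klf4 accompany the monocyte branch.

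The promoters of the 4 genes that gave the cells their working name are shown because the genes were high together in these cells. Each is a RefSeq window of 300 bases (GRCm38.p6), from 250 before to 50 after the annotated start, read 5′ to 3′ on the strand of the gene. The windows are chr10:79886062-79886361 (plus strand) for Elane, chr10:79879417-79879716 (plus) for Prtn3, chr11:87793534-87793833 (plus) for Mpo and chr14:56102525-56102824 (minus) for Ctsg. The Prtn3 window follows the RefSeq start, which lies inside the longer Prtn3 gene of the GENCODE annotation given below. The RefSeq starts of Mpo and Elane also lie inside their GENCODE genes. Most of the Mpo window is therefore within that gene. Capitals mark GAGGAA, the core letters of a PU.1 motif.
Elane: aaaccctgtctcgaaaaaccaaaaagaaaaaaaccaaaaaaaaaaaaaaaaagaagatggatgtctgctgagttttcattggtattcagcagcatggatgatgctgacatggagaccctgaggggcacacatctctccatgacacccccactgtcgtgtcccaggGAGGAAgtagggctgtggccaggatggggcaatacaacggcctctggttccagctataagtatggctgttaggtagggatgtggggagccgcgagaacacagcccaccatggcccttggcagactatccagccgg
Prtn3: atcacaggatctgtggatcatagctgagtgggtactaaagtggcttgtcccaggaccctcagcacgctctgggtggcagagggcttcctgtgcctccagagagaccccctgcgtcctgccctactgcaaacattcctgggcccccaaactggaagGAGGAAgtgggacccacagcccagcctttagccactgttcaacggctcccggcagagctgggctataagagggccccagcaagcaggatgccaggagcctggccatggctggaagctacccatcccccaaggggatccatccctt
Mpo: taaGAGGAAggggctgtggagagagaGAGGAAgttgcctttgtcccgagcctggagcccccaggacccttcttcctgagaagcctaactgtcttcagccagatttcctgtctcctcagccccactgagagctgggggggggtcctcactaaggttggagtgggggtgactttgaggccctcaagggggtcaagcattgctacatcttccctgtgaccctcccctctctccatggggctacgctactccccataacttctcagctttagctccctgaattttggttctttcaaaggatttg
Ctsg: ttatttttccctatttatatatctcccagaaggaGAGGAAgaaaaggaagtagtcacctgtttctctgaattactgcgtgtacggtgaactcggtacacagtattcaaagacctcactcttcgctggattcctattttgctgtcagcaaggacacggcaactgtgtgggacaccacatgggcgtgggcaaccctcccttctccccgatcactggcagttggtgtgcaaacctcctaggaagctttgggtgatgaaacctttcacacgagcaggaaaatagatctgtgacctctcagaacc
Searched on both strands, GAGGAA was present in all 4 windows, 2 times in Mpo and 1 time in each other window, against 28.3% of the 32851 promoter windows of the same length. The C/EBP letters TTNNGNAA were in none of the 4 windows and in 40.7% of all windows. The MYB letters AACTG were found 1 time in Prtn3, 1 time in Mpo and 2 times in Ctsg, with none in Elane, against 44.8% of all windows. Gfi1 was also searched and is not printed. Its windows held no GAGGAA, and 1 of them held 1 C/EBP match and 3 MYB matches. These matches describe letters in a window and no binding was measured. Elane and Prtn3 are neighbouring genes on chromosome 10 (GRCm38, annotated at 79886247 to 79888215 and 79874476 to 79883174), while Mpo lies at 87793581 to 87804413 on chromosome 11 and Ctsg at 56099881 to 56102574 on chromosome 14.

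The coculture library held 29217182 UMIs in 3134 barcodes and the library without coculture 28294186 UMIs in 2180 barcodes. The 134 cells were deep, with a median of 20273 UMIs (3328 to 51168) and 4182 genes, against a median of 5711 UMIs in the other 2871 coculture cells. They therefore held 9.65% of the coculture UMIs. The libraries shared 4 barcodes, none of them among the 134. Doublets were not removed, and their part in the mixed profiles described below was not tested.

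**Figure D1:**
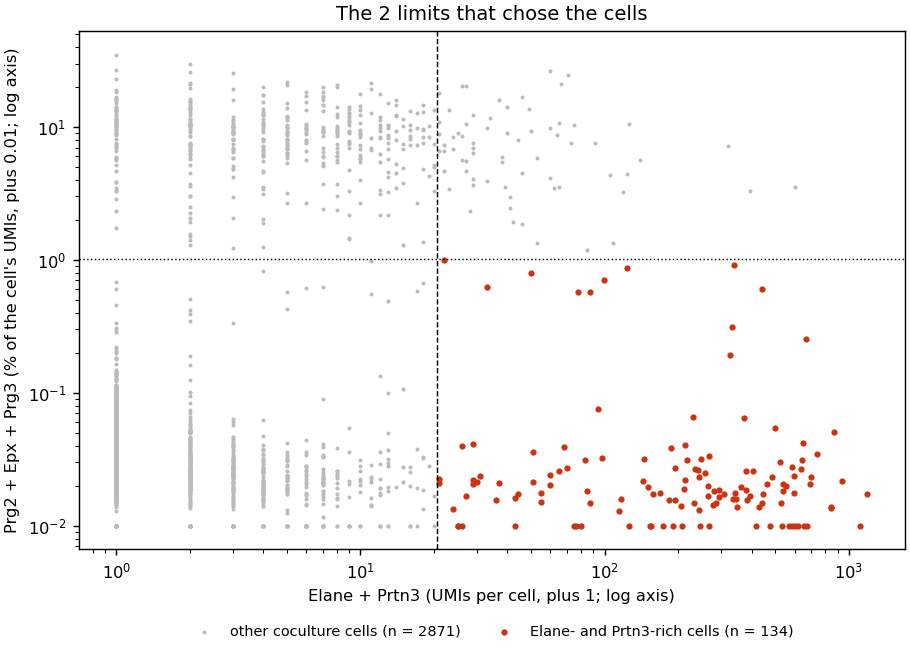
Each point is 1 coculture cell, placed by its Elane and Prtn3 UMIs (x axis, plus 1) and by the share of its UMIs from Prg2, Epx and Prg3 (y axis, percent plus 0.01), both on log axes, with lines at the limits. The 134 chosen cells (red) lie at the lower right, and the 68 cells above the horizontal line on the right meet the same minimum of Elane and Prtn3 UMIs but have more than 1% eosinophil granule UMIs.

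As a description of the choice, the 134 cells carried 20 to 1187 UMIs of Elane and Prtn3 together (median 237.5), which was 0.0422% to 5.57% of a cell's UMIs. Near the limit, 6 cells had 20 to 24 such UMIs, 17 had 20 to 39, and 17 coculture cells that missed it had 15 to 19. Both genes were detected in 128 of the 134 cells; Elane had more UMIs in 83 of them and Prtn3 in 51. A further 68 coculture cells met the Elane and Prtn3 limit but had 1.18% to 26.4% of their UMIs from Prg2, Epx and Prg3, with a median of 6.88%, and were left out by the rule. Among the 134, the highest such share was 0.985%, and 12 cells had 0.1% or more.

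The primary granule genes were abundant across the chosen cells. Levels are given as summed UMIs per 1000000 UMIs of the group (CPM). Elane stood at 7779 CPM (95% Poisson interval 7676 to 7883) against 128 in the other coculture cells, and Prtn3 at 6221 (6129 to 6314) against 202; both were used in the choice. Per 10000 UMIs, Elane ran from 0 to 341 between cells with a median of 70.1, and Prtn3 from 3.33 to 231 with a median of 60. The 134 cells held 86.7% of the library's Elane UMIs and 76.7% of its Prtn3 UMIs, both genes of the rule.

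Mpo, the peroxidase that makes hypochlorous acid, and Ctsg, a serine protease, took no part in the choice. Mpo was at 643 CPM (614 to 673) against 48.7, a 13.2-fold difference, and was detected in 106 of 134 cells. Ctsg was at 2371 CPM (2315 to 2429) against 364, 6.52-fold higher, and was detected in 111 cells. The cells held 58.5% of the Mpo UMIs of the library and 41.1% of its Ctsg UMIs. A further 34.1% of the Mpo UMIs and 24.3% of the Ctsg UMIs lay in the 471 eosinophil-lineage cells of the library. Elane, Prtn3, Mpo and Ctsg summed to 1662 CPM in basophil or mast protease cells and 1453 in eosinophil-lineage cells. The sum was 17014 in the chosen cells, where it includes the genes of the rule. After thinning each cell to 2000 UMIs, Mpo was found in 52.2% of the 134 cells and Ctsg in 71.6%. In B lineage cells of the same library, which should lack both, the thinned shares were 0.254% and 0.508%, at a median depth of 2897.5 UMIs before thinning. The groups still overlapped at the level of single cells, because 28 chosen cells had no Mpo UMI and 23 had no Ctsg UMI.

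Other primary granule genes and partners followed in part. Prss57, which encodes the granule protease NSP4, was at 332 CPM against 108 (3.08-fold), but only 24.7% of the library's Prss57 UMIs lay in the chosen cells and 70.9% lay in eosinophil-lineage cells. Ms4a3, a membrane protein of granulocyte-monocyte progenitors, was at 1035 CPM against 260 (3.98-fold), and Nkg7, a granule membrane protein, at 627 against 77.5 (8.09-fold). Srgn, the proteoglycan core on which granule proteases are packed, was at 5908 against 3499 (1.69-fold). Ctsc, the dipeptidase that activates the granule proteases, went the other way, with 77.3 CPM against 185, and so did Lyz2 (lysozyme), with 177 against 725. Of the 13 list genes that could be counted, 7 were at least 2-fold higher, 2 at least 2-fold lower and 4 in between, with a median log2 difference of 1.02. Over all 8404 genes at 10 CPM or more in either group, 4.41% were at least 2-fold higher, 15% at least 2-fold lower, and the median log2 difference was -0.07. These shares are the background for each later count against the other coculture cells. Elane, Prtn3, Prg2, Epx and Prg3 were kept out of all such counts.

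Beyond the lists, the genes with the largest folds over other coculture cells, among those at 100 CPM or more in the chosen cells, opened with Myl10, a myosin light chain, at 599 CPM against 27.7 (21.6-fold, detected in 126 cells). Mpo was next, followed by Dmkn (288 against 23.3), Ngp and Nkg7. Further down stood Cstb, the cysteine protease inhibitor cystatin B, at 1949 against 290, Thy1 at 377 against 70.2, Rgcc at 593 against 136 and Gatm at 219 against 51.5. Myl10 was spread over the cells: the 10 cells with most of it held 24.7% of its UMIs, and 69.8% of the library's Myl10 UMIs lay in the 134 cells. Camp also entered this list, at 194 CPM against 26.4, yet it was detected in 12 of 134 cells and 10 of them held 99.6% of its UMIs. The 10 lowest genes were genes of lymphocytes or antigen presentation: Ebf1, Igha, Iglc2, Igkc, Ly6d, Cd79a, Ccr7, Iglc1, Iglc3 and H2-Aa, each at 26.4 CPM or less in the chosen cells and between 139 and 2269 in the others.

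**Figure D2:**
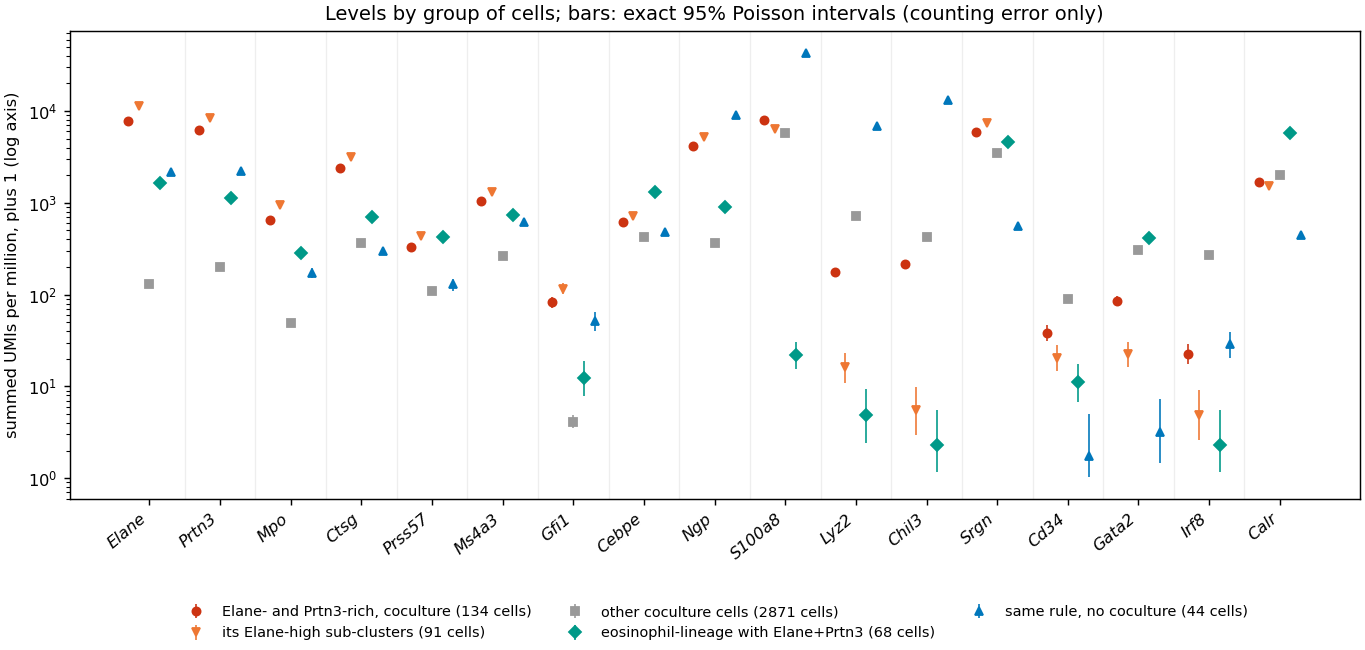
Points give the summed level of each gene (CPM plus 1, log axis) in 5 groups of cells, with exact 95% Poisson intervals that cover counting error only. Elane, Prtn3, Mpo and Ctsg are highest in the chosen cells and their Elane-high sub-clusters, while S100a8, Lyz2 and Chil3 are highest in the cells of the library without coculture.

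The working name was only partly borne out by the levels of other genes, and the cells are therefore called Elane- and Prtn3-rich below. Gfi1, a transcriptional repressor that marks commitment to granulocytes, was at 81.2 CPM (71 to 92.5) against 3.12, 26-fold higher. The cells held 73.5% of the library's Gfi1 UMIs. Gfi1 was detected in 82 of 134 cells and, after thinning, in 16.4%, against 0.767% of the other coculture cells and 1.14% of B lineage cells. Cebpe, a factor of granulocyte maturation, was at 614 CPM against 429, Cebpa at 103 against 42, and Myb, a factor of progenitor growth, at 160 against 57.7. Spi1 was at 331 against 277. Of 20 measured granulocyte and monocyte factors 4 were 2-fold or more higher, 10 lower and 6 in between, with a median log2 difference of -0.84. On the monocyte side, Irf8 was at 21.7 CPM against 268 (12.4-fold lower, in 19 cells), Csf1r, the M-CSF receptor, at 23.5 against 70.3 (20 cells), and Klf4 had 1 UMI in 1 cell. Of 13 measured monocyte genes, 10 were at least 2-fold lower and 1, Ly6c2, was at least 2-fold higher, with a median log2 difference of -2.07. Ly6c2 and its near-identical copy Ly6c1 may share reads, and Ly6C was a sorting marker.

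Genes of stem and early progenitor cells ranged from frequent to almost absent. Myb had the highest log2 difference of this list (1.47) and UMIs in 120 of 134 cells; after thinning it was found in 26.9%, against 1.78% of B lineage cells. Egfl7 had UMIs in 110 cells (111 against 75.8 CPM), Cd48 in 71, Adgrg1 in 66 and Muc13 in 65. Kit, the stem cell factor receptor, was at 9.26 CPM against 10.4 and was detected in 17 cells. Flt3 had 1 UMI in 1 cell. Cd34 was at 37.4 CPM against 88.6 and was detected in 41 cells. Hoxa9, a homeobox gene of early progenitors, was 2.61-fold higher at 36.3 against 13.9 CPM, with UMIs in 57 cells. Of 15 measured genes in this list 3 were at least 2-fold higher, 4 at least 2-fold lower and 8 in between, with a median log2 difference of -0.17. After thinning, Cd34 was found in 7.46% of the cells, Hoxa9 in 8.21%, Kit in 0.746% and Flt3 in 0%, against 0.127%, 0%, 0% and 0.888% of B lineage cells.

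Secondary granule genes divided the cells. Ngp, the neutrophilic granule protein, was at 4172 CPM (4097 to 4248) against 365, but 57 of 134 cells had no Ngp UMI, the median was 1.76 per 10000 and the highest cell reached 550. The 10 cells with most Ngp held 49.3% of it. Ltf (lactoferrin) was at 24.9 against 40, in 10 cells, and Mmp8, a collagenase of later granules, at 87.3 against 446, in 4 cells. Lcn2 (lipocalin 2) was at 259 against 361 and was detected in 106 cells. The alarmin genes S100a8 and S100a9 were at 7969 and 9362 CPM against 5786 and 5166, with 10 cells holding 55.7% and 55.1% of the UMIs. Fcnb (ficolin B) was at 22.1 against 4.41. Of the 17 measured genes in this list 4 were at least 2-fold higher, 7 at least 2-fold lower and 6 in between, with a median log2 difference of -0.68.

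The cells fell into 7 sub-clusters when clustered on their own variable genes at a resolution of 0.8. They are left unnamed, were drawn after the data were seen, and their leading genes are a description. Sub-clusters 1, 2, 3 and 6, with 29, 27, 25 and 10 cells, had a median Elane level of at least 20 per 10000 UMIs and are called Elane-high, 91 cells in all. Sub-clusters 4, 5 and 7, with 17, 16 and 10 cells, did not.

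Within the Elane-high cells, Mpo and Ctsg ran against Ngp. Sub-cluster 2 had the most Mpo, at 1601 CPM in 27 of 27 cells, with Ctsg at 3749, Ngp at 71.7 and Cebpe at 500.5. Sub-cluster 3 had the most Elane and Prtn3, at 16615 and 11625 CPM, with Mpo at 414, Ngp at 11106 in 25 of 25 cells, Cebpe at 921 and S100a9 at 15864. Sub-cluster 1 lay between them for Mpo (813) and Ngp (2592) and was led by G0s2 and the triglyceride enzymes Dgat2 and Dgat1, the last at 556 CPM against 226 in the other Elane- and Prtn3-rich cells. Its Ctsg level was 4020. Sub-cluster 6 combined Elane at 11653 and Ngp at 16035 with Ctsg at 209, Prg2 at 3386 and Epx at 1560, so its 10 cells had eosinophil granule transcripts below the 1% limit.

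Across the 91 Elane-high cells, Spearman's rho was -0.51 between Ngp and Mpo, -0.51 between Ngp and Ctsg, 0.51 between Mpo and Ctsg, and 0.51 between Ngp and Cebpe, on levels per 10000 UMIs. Elane itself went with Ngp (rho 0.49) and Prtn3 (0.74). Elane and Prtn3 chose the 134 cells, and the Elane level of the sub-clusters chose the 91, so rhos with Elane depend on the choice. Between Elane and Mpo, rho was -0.12 in the 91 cells and 0.41 in all 134. These correlations are descriptions across cells of 1 library that share its free RNA and differ in depth, and no p is attached. Over all 134 cells the relation of Ngp to Mpo was weaker, with a rho of -0.13; Mpo and Ngp were at 77 and 21.6 CPM in sub-cluster 4 and at 157 and 6.06 in sub-cluster 5.

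**Figure D3:**
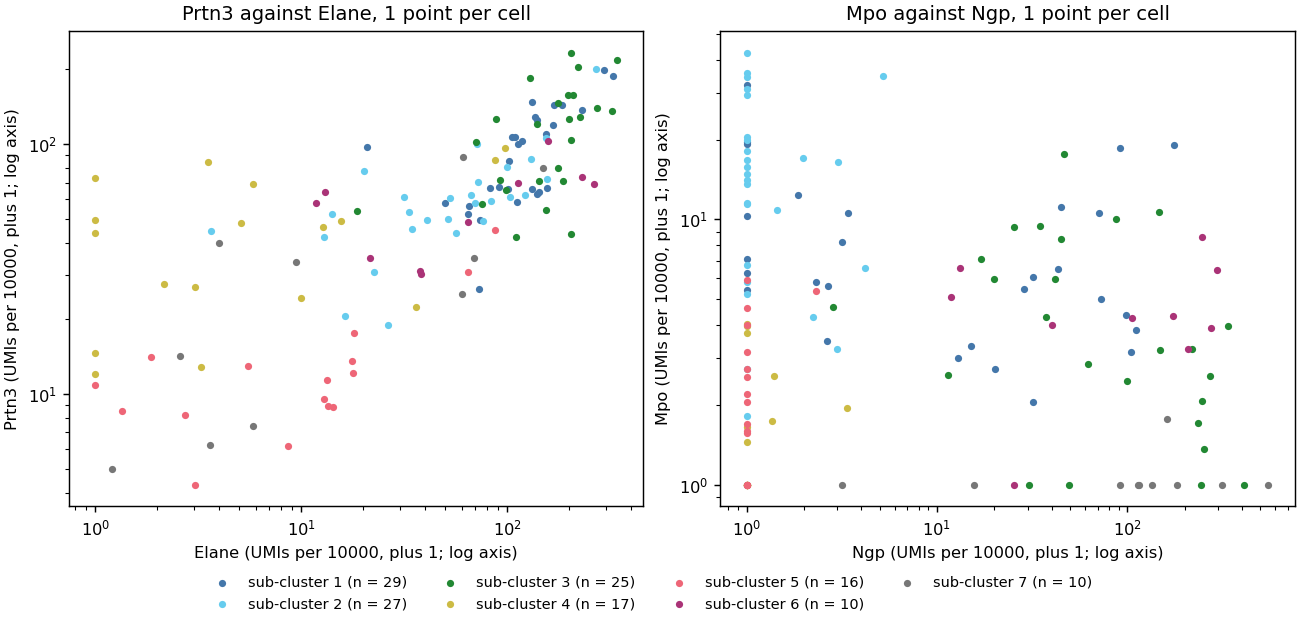
Each point is 1 of the 134 cells, coloured by sub-cluster, with UMIs per 10000 plus 1 on log axes. The left plot shows Prtn3 rising with Elane and the yellow points of sub-cluster 4 with Prtn3 but little Elane; the right plot shows sub-cluster 2 high in Mpo and low in Ngp, and sub-clusters 3, 6 and 7 high in Ngp.

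The other 43 cells lay in sub-clusters led by further genes, which only part of the cells carried. The basophil, platelet or B lineage rule was met by 4 of 17 cells in sub-cluster 4. It was met by 12 of 16 in sub-cluster 5 and 3 of 10 in sub-cluster 7. Sub-cluster 4 had Prtn3 at 4375 CPM and Elane at 1624, and 14 of its 17 cells had more Prtn3 than Elane. It was led by Clec10a (8 cells), Dlk1 (2 cells), Ccl5, Il4i1, Mgl2 and Ly6a, and held Irf8 at 139 CPM, Csf1r at 64.7 and Cd34 at 163. Cd74, the MHC class II invariant chain, was at 607 CPM from 5 of its 17 cells, and at 264 without the cell that had most. In sub-cluster 7, Cd74 was at 659 CPM and Csf1r at 164, higher than in sub-cluster 4, each from 2 of 10 cells. The Ngp level of sub-cluster 4 was 21.6 and its Gfi1 level 12.3. Of its cells, 9 had an Irf8 UMI and 11 a Csf1r UMI, compared with 6 and 6 of the 81 cells of sub-clusters 1, 2 and 3.

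Sub-cluster 5 was led by basophil and mast cell genes, with the proteases Mcpt8 at 1094 CPM, Prss34 at 533 and Cpa3 at 479 (in 9, 8 and 13 of 16 cells), the histamine enzyme Hdc at 349 and the factor Gata2 at 325. A single cell held 152 of the 264 Prss34 UMIs, and without it Prss34 was at 231 CPM, Mcpt8, with the highest cell of its own left out, at 768 and Cpa3 likewise at 407. Of its 16 cells, 12 met the rule used here for basophil or mast protease cells (at least 10 UMIs of Mcpt8, Prss34 and Cpa3), and its median depth of 31060.5 UMIs was the highest of the 7 sub-clusters. Its Ctsg level was 1426 in 16 of 16 cells, and Elane was at 1528.

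Sub-cluster 7 carried the genes of later neutrophils, with S100a8 at 52351 CPM, S100a9 at 57485, Ngp at 11967, Camp at 1617 and Chil3, a chitinase-like protein, at 2858. It was led by Stfa2l1, Arg1, Stfa2 and Stfa3; the stefin A genes are near-identical copies between which counts may be split. Arg1 (arginase 1) stood at 2338 CPM, but 486 of the 489 Arg1 UMIs in the 134 cells came from 3 of these 10 cells. Mpo was found in 1 of the 10 cells, at 4.81 CPM. The level of S100a8 in the 91 Elane-high cells alone was 6410 CPM, and that of Arg1 was 1.69.

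**Figure D4:**
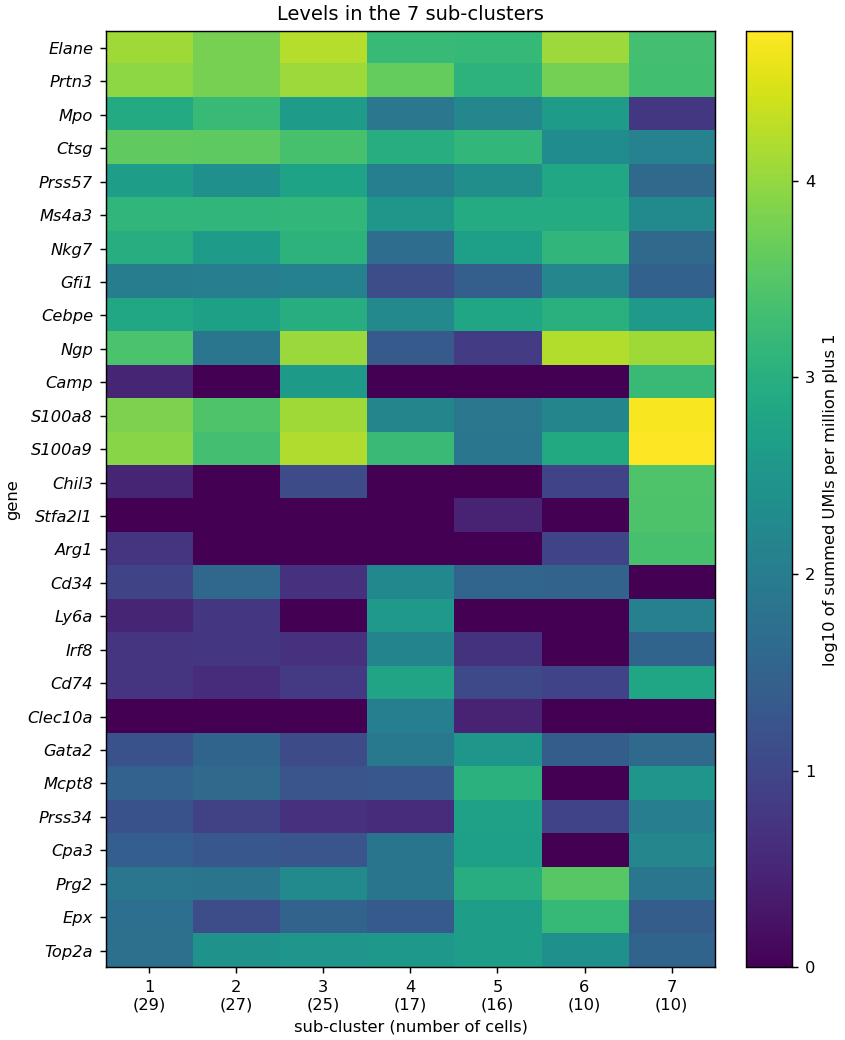
Colours give the summed level of each gene (log10 of CPM plus 1) in the 7 sub-clusters, whose cell numbers are under the columns. Sub-clusters 1, 2, 3 and 6 hold the highest Elane levels, and sub-clusters 4, 5 and 7 add Irf8 with Ly6a, Mcpt8 with Gata2, and S100a8 with Chil3 respectively.

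Markers of basophils, eosinophils, B cells, platelets, dendritic cells and macrophages were lower in sum than in the other coculture cells, but not at 0. The 10 basophil or mast cell markers summed to 635 CPM in the 134 cells, and to 108 in the Elane-high cells, against 6281 in the other coculture cells; single cells ran from 0 to 27396 with a median of 74.1. The 9 eosinophil markers summed to 662 CPM against 25999, and 7 of them had any UMI. They include Prg2, Epx and Prg3, which the rule kept low, and cells beyond its limit stayed in the comparison group. This gap therefore follows from the choice. Of the 4 markers outside the rule that could be counted, 3 were at least 2-fold lower and 1 in between, against the same group. The 9 B lineage markers summed to 68 against 1931, the 8 megakaryocyte or platelet markers to 149 against 2528, the 7 mature dendritic cell markers to 39.9 against 733, the 9 macrophage markers to 78.7 against 447 and the 9 erythroid markers to 219 against 307. The 9 T or NK cell markers summed to 629 against 124, of which Nkg7 made up 627, and 3 of the 9 had any UMI. The 7 mature neutrophil markers summed to 17491 against 12017, and nearly all of the 17491 was S100a8 and S100a9. Of these 7 markers, 0 were at least 2-fold higher, 4 at least 2-fold lower and 3 in between (median log2 difference -1.73). Over all genes 4.41% were higher and 15% lower by that limit. Prg2, kept low by the rule, had a UMI in 22.4% of the thinned cells and in 22.8% of B lineage cells, and was concentrated in sub-clusters 5 and 6, at 913 and 3386 CPM. In all, 15 of the 134 cells met the basophil rule, 5 the platelet rule, 2 the B lineage rule and 51 the secondary-granule rule (at least 20 UMIs of Camp, Ltf and Ngp). Without every cell that met any of these rules, Mpo was at a log2 difference of 4.28 over the other coculture cells (3.72 with them) and Gfi1 at 4.81 (4.70 with them). Ngp then stood at -1.73 and Camp at -5.12, which follows from a rule that removes the cells richest in those genes.

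Transcripts of dividing cells were frequent. After thinning to 2000 UMIs, 75 of the 134 cells (55.97%, exact interval 47.1% to 64.5%) had at least 10 UMIs from 50 G2/M genes, against 17.4% of the other coculture cells that were deep enough and 5.2% of B lineage cells. Without thinning the share was 97.8% of the 134 cells and 35.9% of the others, and 265 of the other coculture cells were too shallow to be thinned. In the 91 Elane-high cells alone, the share was 51.6%. The share varied between sub-clusters, with 22 of 25 cells in sub-cluster 3, 20 of 27 in sub-cluster 2 and 13 of 16 in sub-cluster 5, but 8 of 29 in sub-cluster 1, 5 of 17 in sub-cluster 4 and 1 of 10 in sub-cluster 7. Sub-clusters 1 and 3, both rich in Elane, were far apart in the share of such cells. Cell cycle genes were not removed before clustering, so such genes may have helped to draw the sub-clusters. The differences between their shares are a description only.

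Genes of DNA replication and ribosome assembly were moderately higher than in the other coculture cells. Of 39 measured S phase genes, 11 were at least 2-fold higher than in other coculture cells and none lower (median log2 difference 0.82), among them Rrm2, a subunit of ribonucleotide reductase, at 182 against 80.2 CPM, and the replicative helicase subunit gene Gins2 at 51.6 against 20.4. Of 49 G2/M genes 1, Tubb4b, was at least 2-fold higher (median 0.49), which is below the share of all genes. Of the 20 genes listed for nucleolus and ribosome assembly 3 were at least 2-fold higher (median 0.75). They were the mitochondrial chaperone Hspd1 at 417 against 155, Nhp2 at 373 against 165 and the spermidine synthase Srm at 317 against 156. Of these 3, only Nhp2 encodes a nucleolar protein. The 20 endoplasmic reticulum folding genes had a median of 0.10, and 18 of them lay within 2-fold. Xbp1, a factor of secretory cells, was the one at least 2-fold higher, at 766 against 316.

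Antigen presentation and chemokine genes were lower than in the other coculture cells, a mixed group that includes 898 B lineage cells. Of 10 MHC class II presentation genes 9 were at least 2-fold lower and 1 in between (median log2 difference -3.24), and of 13 measured chemokines 12 were at least 2-fold lower and 1 in between (median -3.10). Among the chemokines, Ccl6 was at 858 CPM against 4126 and Ccl3 at 27.8 against 239. Of 20 measured genes associated with suppressor cells, 12 were at least 2-fold lower, none higher and 8 in between (median -1.05). The direction depended on the cells compared. Against the eosinophil-lineage cells described below, 7 of 9 chemokines and 12 of 16 suppressor-associated genes were 2-fold or more higher and none lower. Over all genes of that pair, 5.71% were higher and 3.23% lower. Against the same rule without coculture, 5 of 10 chemokines were higher and 2 lower, and 7 of 17 suppressor-associated genes higher and 4 lower. Over all genes there, 14.3% were higher and 8.44% lower. Of the UMIs in the Elane- and Prtn3-rich cells, the 10 cells of sub-cluster 7 held 99.4% of Arg1 and 90.9% of Nos2. They held 70.9% of Pf4 and 45.4% of S100a9. Neither list was counted in the Elane-high cells alone. Against the other coculture cells, Arg1, the arginase of suppressor myeloid cells, was at 174 against 743, Vegfa at 67.7 against 140, and Tgfb1 at 465 against 353. All 6 subunits of the NADPH oxidase lay within 2-fold, with the catalytic subunit Cybb at 40.2 against 75.3 and Cyba at 1271 against 1180. Of 16 measured cytokine receptor genes none was at least 2-fold higher and 8 were at least 2-fold lower. The GM-CSF receptor chains Csf2ra and Csf2rb were at 71.6 against 76.9 and at 215 against 566, and the G-CSF receptor Csf3r at 26 against 26. Of 15 genes of STAT5 and cytokine feedback 6 were lower by that limit and 9 in between (median -0.73), with Pim1, a kinase gene induced by cytokines, at 850 against 578 and Cish at 72.3 against 120. Of 10 measured genes for surface proteins used in myeloid sorting 1 was higher, 5 were lower and 4 in between, and Itgam, which encodes the CD11b of the sort, was at 59.1 against 153.

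**Figure D5:**
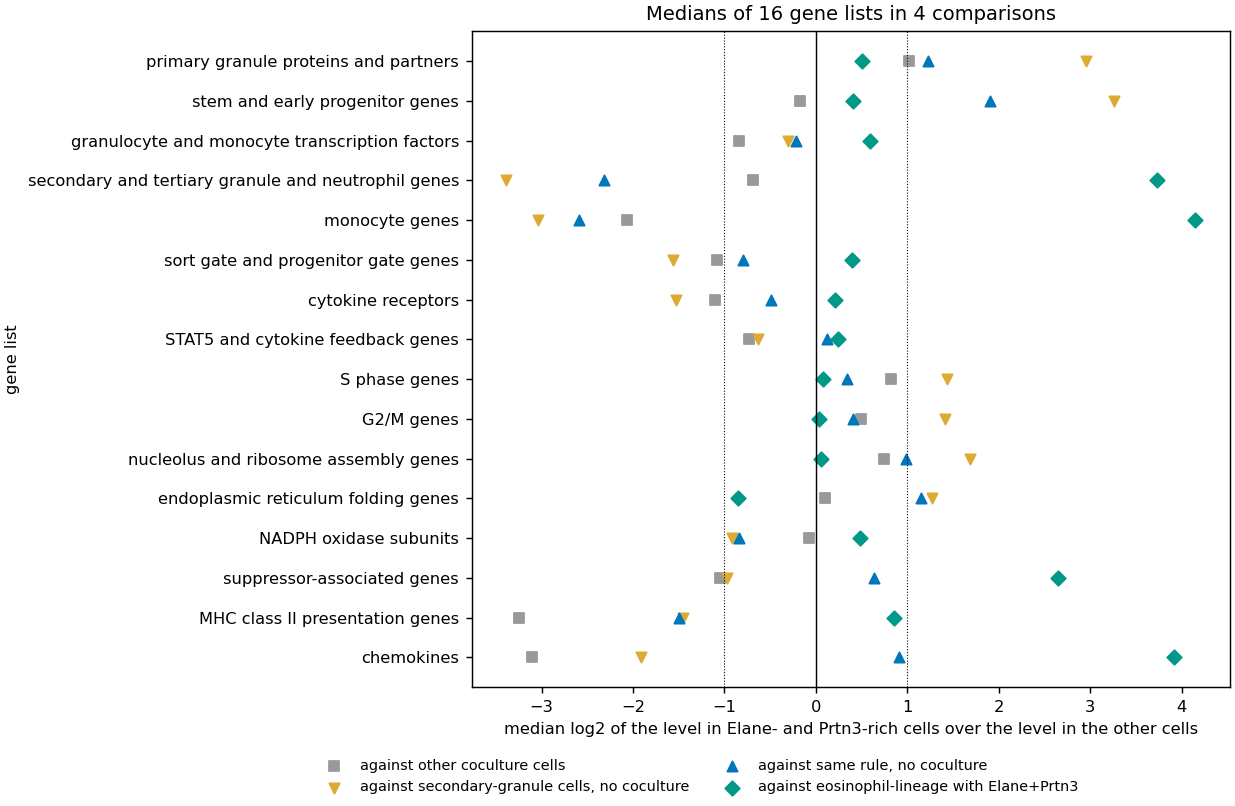
Points give the median log2 difference of each gene list (level in the Elane- and Prtn3-rich cells over the level in the other cells) in 4 comparisons, with dotted lines at 2-fold. Secondary granule and monocyte genes lie left of 0 against each group without coculture and right of 0 against the eosinophil-lineage cells, and the G2/M and nucleolar lists lie near 0 against the latter.

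The 68 coculture cells that met the same minimum of 20 Elane and Prtn3 UMIs but had over 1% eosinophil granule UMIs were compared next, at a median depth of 22760 UMIs. They carried less of the pair, with a median of 39 such UMIs (0.185% of UMIs) against 237.5 (1.26%), so the groups are not matched for it. Of 7651 genes compared with them, 5.71% were 2-fold or more higher in the Elane- and Prtn3-rich cells and 3.23% were 2-fold or more lower. Mpo was 2.28-fold higher in the latter (643 against 282 CPM) and Ctsg 3.36-fold (2371 against 705), whereas Prss57 was at 332 against 428. Gfi1 was at 81.2 against 11.5 CPM, 7.08-fold higher, while Cebpe was 2.13-fold lower (614 against 1306) and Gata2 4.98-fold lower (83.7 against 417). Calr, the chaperone calreticulin, was at 1689 against 5695, and 7 of 20 endoplasmic reticulum folding genes were at least 2-fold lower with none higher.

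Neutrophil genes separated the same pair of groups. Of 16 measured secondary and tertiary granule genes 15 were at least 2-fold higher than in the 68 cells and 1 lower (median 3.74). The UMIs of some list genes lay mostly in the 10 cells of sub-cluster 7. These cells held 98.7% of the Chil3 UMIs of the Elane- and Prtn3-rich cells, 95.4% of Retnlg, 85.7% of Ltf and 61.7% of Camp. They held less of Ngp (21.2%) and Fcnb (22.6%). The list was not counted in the Elane-high cells alone. S100a8 was at 7969 against 21 CPM, and in the Elane-high cells alone at 6410. Cstb was at 1949 against 220. All 50 G2/M genes, 39 S phase genes and 20 nucleolar genes lay within 2-fold. The share of cells with at least 10 thinned G2/M UMIs was 45.6% in the 68 cells (33.5% to 58.1%), an interval that overlaps the 47.1% to 64.5% of the Elane- and Prtn3-rich cells.

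The same rule chose 44 of 1817 cells in the library without coculture, or 2.42% (1.76% to 3.24%), at a median depth of 28329 UMIs. As a description of the choice, Elane was at 2158 CPM against 7779 in the coculture cells and Prtn3 at 2229 against 6221; a fixed minimum of UMIs admits lower shares in deeper cells. Mpo and Ctsg, outside the rule, were lower without coculture. Mpo was at 171 CPM, 3.76-fold lower than the 643 of the coculture cells, and was detected in 6 of 44 cells against 106 of 134. After thinning, those shares were 6.82% and 52.2%. Ctsg was at 295 against 2371 CPM, 8.05-fold apart, and was found after thinning in 29.5% and 71.6% of cells. Per 10000 UMIs, the median Ctsg level was 0.472 in the 44 cells and 16.2 in the 134.

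Secondary granule genes and several monocyte and macrophage genes were higher in the 44 cells. Ngp was at 8956 CPM against 4172, S100a8 at 43105 against 7969, Lcn2 at 2976 against 259, Lyz2 at 6902 against 177 and Chil3 at 13103 against 214. Chil3 was detected in 43 of 44 cells, with a median of 133 per 10000, against 16 of 134 cells with a median of 0. The lowest S100a8 level in any of the 44 cells was 2.71 per 10000, so none was without the transcript, and the part of free RNA in these levels was not tested. Macrophage markers moved with these genes: the 9 markers summed to 538 CPM in the 44 cells and 78.7 in the 134, 5 of 6 measured were at least 2-fold lower in the coculture cells (median -3.37), and so were 10 of 14 monocyte genes (median -2.59); their part in the levels of Lyz2 and Chil3 was not tested. The mature neutrophil markers were divided, with 3 of 7 higher and 2 lower in the coculture cells (median -0.25). Of 18 measured secondary and tertiary granule genes 14 were at least 2-fold lower in the coculture cells and 2 higher (median -2.31), where 8.44% of 7883 genes were at least 2-fold lower, 14.3% at least 2-fold higher, and the median log2 difference of all genes was 0.20. With median-ratio scaling the balance of calls turned, from 1130 higher and 665 lower to 778 and 911.

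Endoplasmic reticulum folding and nucleolar genes were higher in the coculture cells of this pair, whereas cell cycle genes were mostly within 2-fold. Srgn was at 5908 against 553 CPM (10.7-fold), Calr at 1689 against 450 (3.75-fold) and Ssr2, of the translocon, at 714 against 160 (4.46-fold). Of 19 measured folding genes 14 were at least 2-fold higher and none lower (median 1.15), and of 20 nucleolar genes 10 were higher (median 0.99). Of 39 S phase genes 5 were higher, near the share of all genes, and of 49 G2/M genes 2 were higher and 1 lower. Of 12 measured stem and early progenitor genes 9 were at least 2-fold higher and 1 lower (median 1.90). In that list Cd34 had 105 UMIs in the 134 cells and 1 UMI in the 44, and Kit, at 9.26 against 21.1 CPM, was the lower one. Of the 105 Cd34 UMIs, 53 lay in the 17 cells of sub-cluster 4, which is not Elane-high. Igfbp4, which binds insulin-like growth factors, was at 489 against 75.6. Gata2 was at 83.7 against 2.18, but 68.5% of its UMIs in the 134 cells lay in sub-cluster 5, where basophil markers are high, and the Elane-high cells alone had 21.3 CPM. The basophil or mast cell markers that could be counted were all 5 higher (median 5.62). Hif1a, the oxygen-responsive factor, was at 269 against 40, and Cebpe at 614 against 482, within 2-fold. Myl10, which led the list within the coculture, was at 599 against 770. The share of cells with at least 10 thinned G2/M UMIs was 52.3% (36.7% to 67.5%), an interval that overlaps that of the coculture cells.

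Since the 44 cells held a smaller share of Elane and Prtn3, both groups were also limited to cells with at least 0.5% of UMIs from the pair, a limit added after the data were seen. That left 103 coculture cells and 11 cells without coculture. Ctsg was then at 2939 against 935 CPM and Mpo at 797 against 649, a smaller gap than before. S100a8 was at 7650 against 36532, Lyz2 at 17.8 against 2501, Chil3 at 22.3 against 8519, Srgn at 7288 against 1148 and Calr at 1489 against 526, so these differences kept their direction. The levels in 11 cells rest on 342303 UMIs.

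Against the 220 cells of the library without coculture that had at least 20 UMIs of Camp, Ltf and Ngp, 22.5% of 8186 genes were 2-fold or more higher in the Elane- and Prtn3-rich cells and 18% were 2-fold or more lower, with a median log2 difference of all genes of 0.18. With median-ratio scaling the balance turned here too, from 1839 higher and 1476 lower to 1457 and 1773. Mpo was at 643 against 11.1 CPM and Ctsg at 2371 against 44.5. Of 49 G2/M genes 37 were at least 2-fold higher and none lower (median 1.41), of 20 nucleolar genes 19 were higher (median 1.69), and 55.97% against 9.26% of cells had at least 10 thinned G2/M UMIs. Secondary and tertiary granule genes, 14 of 15 of which were at least 2-fold lower (median -3.39), include the genes that chose the 220 cells, which were left out of the count. The macrophage marker set had 9 of 9 genes at least 2-fold lower in the same comparison.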

How the data were processed

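The deposited matrices hold UMI counts per gene and barcode, made by the authors with Cell Ranger and bcl2fastq for the mm10 build per the submitters' processing notes, from 10x 3′ libraries; matrix software 3.1.0 is named per the file headers. The counts are not normalized, and depth was 28294186 UMIs without coculture and 29217182 with it. The count tables list 47729 genes. Of these, 136 repeat the symbol of an earlier identifier. They were kept as separate genes and not summed, so a named gene is the first identifier with its symbol.

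The members and gene lists were chosen with earlier results of these data known. Kept barcodes had 500 genes or more and no more than 10% mitochondrial UMIs, and no doublet caller was run. UMIs were summed over cells and divided by the group's total; genes at 10 CPM or more in either sum were compared, and a gene counted as changed at 2-fold. Poisson, conditional binomial and Clopper-Pearson intervals (95%) cover counting error only. A count of 0 is set at a floor of 3 UMIs. Comparison groups were cells passing a limit on their own genes; the eosinophil rule came first, and the other barcodes that met more than 1 rule were left out. Genes named beyond the 16 lists and 10 marker sets are the 20 largest folds at 100 CPM or more in members and the 10 smallest at 100 CPM or more in the other cells; sub-cluster leading genes were named after their values were seen. Sub-clusters used 1000 variable genes, 10 components and 10 neighbours (scanpy 1.11.5, igraph 0.11.9; Python 3.11.15, numpy 2.4.6, scipy 1.17.1). The fold computation was tested on simulated data. Gene positions are from GENCODE on GRCm38, and promoters from RefSeq GRCm38.p6, where 5 of 6 genes sought were matched. Alternatives changed the cell limits, the CPM minimum, the scaling and the members, and the comparisons with the same rule and with eosinophil-lineage cells were added after the data were seen.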

Additional observations from a re-analysis of the deposited data

How the results depend on the processing

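No paired analysis was possible because each culture gave 1 library. The number of cells followed its limits: 187 with at least 10 Elane and Prtn3 UMIs, 103 at 0.5% of UMIs, and 202 with no eosinophil limit, against 134. Counts of genes at least 2-fold apart moved mainly with the level minimum. With 50 CPM, the higher and lower counts were 198 and 390 against other coculture cells (371 and 1259), 887 and 590 against secondary-granule cells (1839 and 1476), 433 and 216 against the same rule without coculture (1130 and 665), and 121 and 83 against eosinophil-lineage cells (437 and 247). With 10 UMIs over both sums and no CPM minimum they were 1260 and 2970 against other coculture cells, 977 and 448 against eosinophil-lineage cells, 2273 lower against secondary-granule cells, and 1743 higher against the same rule. These follow from the number of genes admitted. A mean over cells gave 859 higher than other coculture cells. Leaving out cells that met another class rule gave 608 higher than other coculture cells and 372 lower than eosinophil-lineage cells, and the Elane-high cells alone gave 560 and 403; the cause was not tested. The G2/M share was 45.0% at 4000 UMIs with at least 20 list UMIs and 79.9% with at least 5, against 55.97%. Without cells of another class, Ngp turned from 3.51 to -1.73 and Camp from 2.88 to -5.12 on the log2 scale, by that rule's construction. In the Elane-high cells alone, Irf8 was at -6.09 (-3.63), Arg1 at -8.78 (-2.09), Gata2 at -3.85 (-1.88) and Cd34 at -2.17 (-1.24). Median-ratio scaling turned the balance of higher and lower calls against the same rule (778 and 911) and against secondary-granule cells (1457 and 1773). Each of the other 52 values that answer a comparison, those included, stayed within 1.5 times or, for cell numbers and shares, within their intervals. Resolution 0.4 gave 4 sub-clusters and 1.2 gave 10, and the 10 cells of sub-cluster 7 stayed together in both.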

Other observations

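The filters on genes and mitochondrial UMIs left out 129 barcodes of the coculture library, of which 0 met the Elane and Prtn3 limit, and 363 of the other library, of which 1 met it.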
